A study of Mus musculus with 20 samples.

Results

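Genes of the phase II conjugation enzymes were compared between the livers of Bnc2 heterozygous and WT mice on a fibrogenic diet. Members were taken by name: every gene symbol on the array that denotes a cytosolic or kappa-class glutathione transferase (Gst followed by a class letter), a microsomal glutathione transferase (Mgst), a UDP-glucuronosyltransferase of families 1 to 3 (Ugt) or a sulfotransferase (Sult). Of 22180 genes measured through probe sets with a single gene symbol, 52 were members, namely 21 glutathione transferases, 10 UDP-glucuronosyltransferases and 21 sulfotransferases. Each of the 52 was read by 1 probe set. A further 14 symbols of these families, among them Gsta1, Gsta2, Gstm5, Gstz1 and 8 Ugt1a genes, were read only by probe sets shared between genes and are described apart.

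The 10 heterozygous mice carried 1 allele of the Ayu21-18 gene trap, an insertion that disrupts and inactivates Bnc2, the gene of the zinc finger protein basonuclin 2. Their 10 WT littermates were the controls, and all 20 were adult males of a C57BL/6 x CBA background. For 7.5 weeks both genotypes had eaten CDAA-HFSC, a feed free of choline and built on amino acids, with sucrose at 35%, fat at 21% and cholesterol at 2%, that provokes steatohepatitis. Liver RNA of each mouse was hybridised to 1 mouse gene array. The gene trap is present in every cell of the animal, so a difference cannot be assigned to 1 cell type, and in whole liver RNA fewer cells of a type and less RNA per cell cannot be told apart.

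Phase II enzymes attach a polar group to drugs, hormones, bile acids and reactive lipids so that transporters can carry the product into bile or blood. Glutathione transferases add the tripeptide glutathione to electrophiles, UDP-glucuronosyltransferases of the endoplasmic reticulum add glucuronic acid taken from UDP-glucuronic acid, and cytosolic sulfotransferases add sulfate taken from PAPS (3'-phosphoadenosine 5'-phosphosulfate). In liver, hepatocytes make most of these enzymes, and the xenobiotic sensors NRF2, CAR, PXR and AHR together with the sex-specific growth hormone rhythm are known to set the expression of many of them.

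The median log2 level per array was 6.62 to 6.71, and arrays correlated pairwise at 0.979 to 0.989 across probe sets. As a mark of dim signal, the 95th percentile of the mean log2 levels of 1105 olfactory receptor genes was 6.99. At or above this dim bound were 31 of the 52 members, made up of 18 glutathione transferases, 8 UDP-glucuronosyltransferases and 5 sulfotransferases. Bnc2 itself averaged 5.41 ± 0.13 in heterozygous and 5.37 ± 0.25 in WT livers on the log2 scale (SD, n = 10 each; limma p = 0.663), below the dim bound, so its array level does not check the genotype labels. Hepatocyte markers had list means of 15.93 to 16.15 in heterozygous and 15.96 to 16.15 in WT livers, and 6 of 13 had a positive difference. The 13 include Trh, which should not be read as a hepatocyte marker. Its mean log2 level of 4.83 lay below the dim bound and lowers the list means, and its difference was negative. Of the 13, 5 (Alb, Ahsg, Apob, Ttr and Cyp2e1) lay within 0.2 of the highest log2 value of the table, 19.93, where a difference would hardly show. At an unadjusted p under 0.05, 0 were higher and 1 was lower, Pck1 of gluconeogenesis (fold 0.668, 0.503 to 0.888; limma unadjusted p = 0.00744).

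No member passed the comparison of genotypes after adjustment over all genes, and most differences were small and positive. With limma and Benjamini-Hochberg adjustment, 0 of the 52 members had an adjusted p under 0.05 (0.0% of all genes), and the smallest adjusted p was 0.506. At an unadjusted p under 0.05, 5 members were higher in heterozygous livers (2.78% of all genes) and 1 was lower (3.63% of all genes). The 5 were Gstm7, Ugt2b1, Ugt2b37, Sult1c2 and Sult1e1, and the 1 was Sult3a1. A positive difference, heterozygous minus WT, was found for 35 of 52 members, beside 51.0% of all genes, and the median difference was 0.08 on the log2 scale over the members and 0.003 over all genes.

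Of the 31 members at or above the dim bound, 3 were higher at an unadjusted p under 0.05 (3.23% of genes as bright) and 0 were lower (4.89%). Among these 31, 22 had a positive difference, beside 51.2% of genes as bright. By family, the difference was positive for 15 of 21 glutathione transferases, 7 of 10 UDP-glucuronosyltransferases and 13 of 21 sulfotransferases, with median log2 differences of 0.07, 0.05 and 0.10. Without any 1 mouse these medians ran from 0.06 to 0.12, from 0.01 to 0.09 and from 0.05 to 0.12. Such counts are not made of independent genes, since 40 of the 52 members stand in 9 runs of neighbouring family genes in the RefSeq order, and all members were measured in the same 20 livers.

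**Figure D1:**
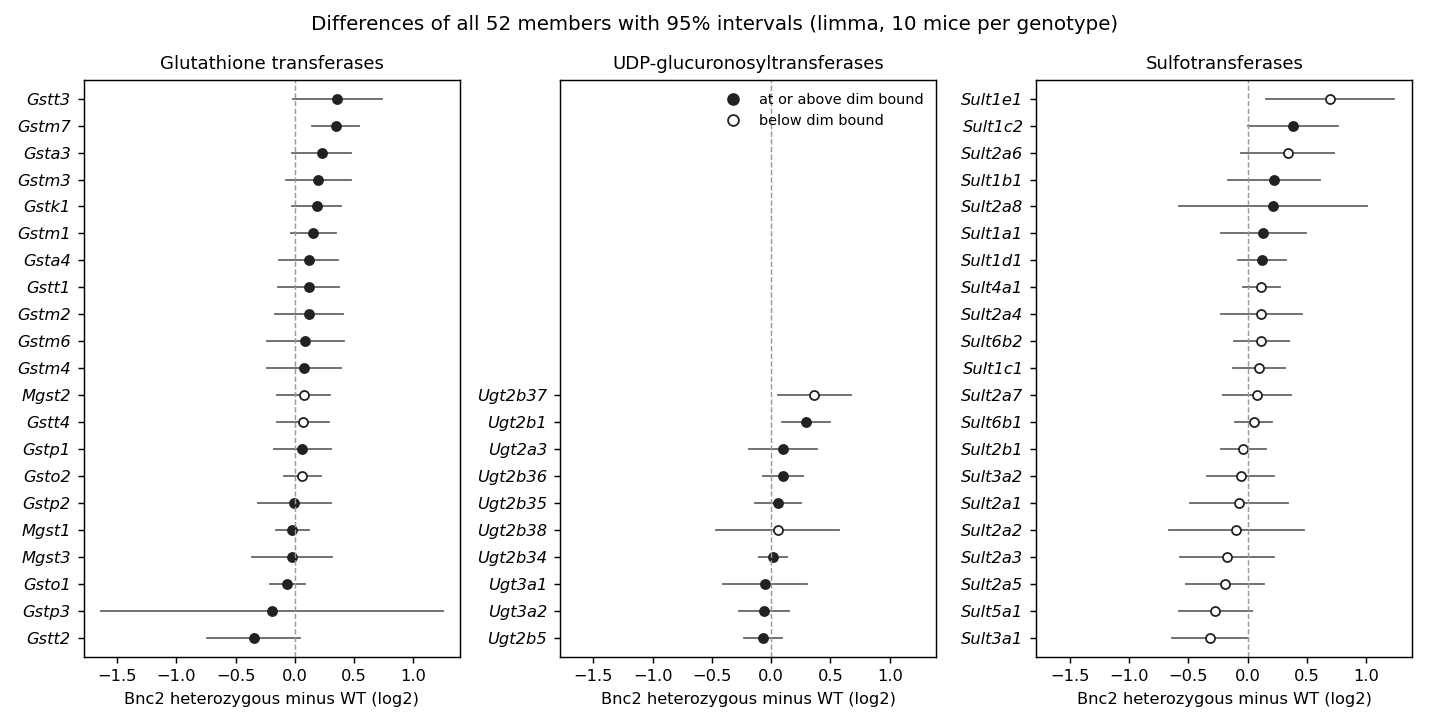
Difference between Bnc2 heterozygous and WT livers for each of the 52 members (x axis, log2, heterozygous minus WT; 10 mice per genotype), with bars for the 95% interval from limma, filled points for members at or above the dim bound of 6.99 and open points for those below it. Most points lie to the right of 0, the interval of Gstp3 is wide, and the intervals of Gstm7, Ugt2b1, Ugt2b37, Sult1c2, Sult1e1 and Sult3a1 leave out 0.

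Among glutathione transferases the mu class, a cluster of cytosolic enzymes that act on epoxides and quinones, had a positive difference in all 6 members, with a median of 0.14 on the log2 scale. Gstm7 had log2 levels of 12.68 to 13.23 in heterozygous livers (median 12.91) and of 12.13 to 12.89 in WT livers (median 12.64). The groups overlapped, but 6 of 10 heterozygous livers lay above every WT liver and all 10 above the WT mean. The fold was 1.27 (95% interval 1.11 to 1.46; limma unadjusted p = 0.00158, adjusted p = 0.506; permutation p = 0.0009).

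Gstm1 reached log2 levels of 12.87 to 13.71 (median 13.25) in heterozygous and of 12.76 to 13.39 (median 13.13) in WT livers, a fold of 1.11 (0.976 to 1.27). For Gstm3 the log2 levels were 17.77 to 18.62 (median 18.16) in heterozygous and 17.50 to 18.58 (median 17.99) in WT livers, a fold of 1.15 (0.949 to 1.39). Both ranges overlapped across most of their length, and neither gene passed at an unadjusted p of 0.05. Gstm2, Gstm4 and Gstm6 had folds of 1.08, 1.05 and 1.06. All 6 mu-class differences stayed positive after quantile normalization and after centring the arrays, while 5 of 6 were positive without WT replicate 6 or without WT replicate 10.

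The alpha class, known for detoxifying products of lipid peroxidation and aflatoxin epoxide, had 2 members of its own on the array. Gsta3, the mouse enzyme noted for conjugating aflatoxin epoxide, had log2 levels of 15.98 to 16.96 (median 16.47) in heterozygous and of 15.76 to 16.52 (median 16.26) in WT livers. Above every WT liver lay 4 heterozygous livers, and the fold was 1.17 (0.986 to 1.39; limma unadjusted p = 0.0711). Gsta4, which conjugates 4-hydroxynonenal, had a fold of 1.09 (0.913 to 1.29), with log2 levels of 15.05 to 15.85 (median 15.41) in heterozygous and of 14.80 to 15.97 (median 15.28) in WT livers. The groups overlapped almost fully for Gsta4.

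Gsta1 and Gsta2 could be read only through 3 probe sets that they share with each other and with predicted genes. These had folds of 1.46 (0.881 to 2.42), 1.28 (0.948 to 1.73) and 1.21 (0.871 to 1.67), with limma unadjusted p of 0.134, 0.102 and 0.245. Their intervals reach below 1, and the signal of each gene cannot be told apart on them.

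The 130 bases before the start of Gsta3 are shown because they hold the core of an antioxidant response element, the letters TGACNNNGC to which NRF2 binds in many glutathione transferase genes. The sequence is from RefSeq (GRCm38.p6), in lower case from 5' to 3' up to the base before the start, with the matched letters in capitals, 121 bases before the start.
Gsta3, chr1:21240455-21240584, plus strand: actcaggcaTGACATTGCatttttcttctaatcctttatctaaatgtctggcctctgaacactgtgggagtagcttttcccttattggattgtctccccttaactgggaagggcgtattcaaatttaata
Searched on both strands in the 250 bases before the start, these letters were found in 3 of the 45 members with a promoter entry (6.67%) and in 12.3% of 16990 genes. The match is one of letters and was not tested as a binding site.

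In the theta class, cytosolic enzymes that act on small halogenated compounds, Gstt3 and Gstt2 had differences of opposite sign. Gstt3 showed log2 levels of 8.97 to 10.07 (median 9.34) in heterozygous and of 8.18 to 9.92 (median 9.14) in WT livers, and 4 WT livers lay below every heterozygous one. Its fold was 1.28 (0.987 to 1.66; limma unadjusted p = 0.0620). Gstt2 had log2 levels of 10.65 to 11.97 (median 11.63) in heterozygous and of 11.20 to 12.68 (median 11.65) in WT livers, a fold of 0.786 (0.598 to 1.03; unadjusted p = 0.0805). The medians of Gstt2 lay close together, and its difference came with 2 heterozygous livers below and 3 WT livers above the range of the other genotype. Gstt1 had a fold of 1.08 (0.908 to 1.30).

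Gstk1, the kappa-class enzyme of mitochondria and peroxisomes, had log2 levels of 14.46 to 15.23 (median 14.89) in heterozygous and of 14.38 to 15.09 (median 14.74) in WT livers. The ranges overlapped in all but 4 livers, and the fold was 1.13 (0.982 to 1.31; limma unadjusted p = 0.0840). Gsto1, an omega-class thiol transferase, and Mgst1 and Mgst3, membrane-bound enzymes of the MAPEG family, had folds of 0.956, 0.984 and 0.981. Mgst1 varied little, with log2 levels of 15.41 to 15.86 in heterozygous and of 15.55 to 15.81 in WT livers, so its interval of the fold was narrow (0.894 to 1.08).

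The pi class stood apart by the spread of 1 member. Gstp1 had log2 levels of 17.13 to 17.65 (median 17.37) in heterozygous and of 16.86 to 17.80 (median 17.34) in WT livers, a fold of 1.04 (0.882 to 1.23). Gstp2 had a fold of 0.997 (0.806 to 1.23). Gstp3 had log2 levels of 13.99 to 18.84 (median 17.68) in heterozygous and of 13.76 to 18.51 (median 17.74) in WT livers, and its fold was 0.873 with an interval from 0.321 to 2.37. Both genotypes spanned nearly the same range, and the wide interval goes with the variation among mice within each genotype.

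For Gstp3 the 20 livers fell into 2 sets with no liver between. In 5 livers, heterozygous replicates 1, 5 and 6 and WT replicates 1 and 2, the log2 level was 13.76 to 14.97, and in the other 15 it was 17.48 to 18.84, a gap of 2.51. Its within-genotype SD of 1.73 stood at percentile 99.9 of genes at or above the dim bound. Gstp1 and Gstp2, the neighbours of Gstp3 on chromosome 19, had within-genotype SDs of 0.27 and 0.35 in the same mice and no split into 2 sets. The largest gap of Gstp2, 0.63, set WT replicate 7 alone above the other 19 livers. A probe set shared by Gstp1 and Gstp2 had a fold of 1.06 (0.919 to 1.22). Gstp3 was read by 1 probe set in mice of a mixed background, so a difference in transcript level and a difference in how the probes bound cannot be told apart. Its levels, fold and SD are those of the probe reading, and the source of the pattern was not tested.

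**Figure D2:**
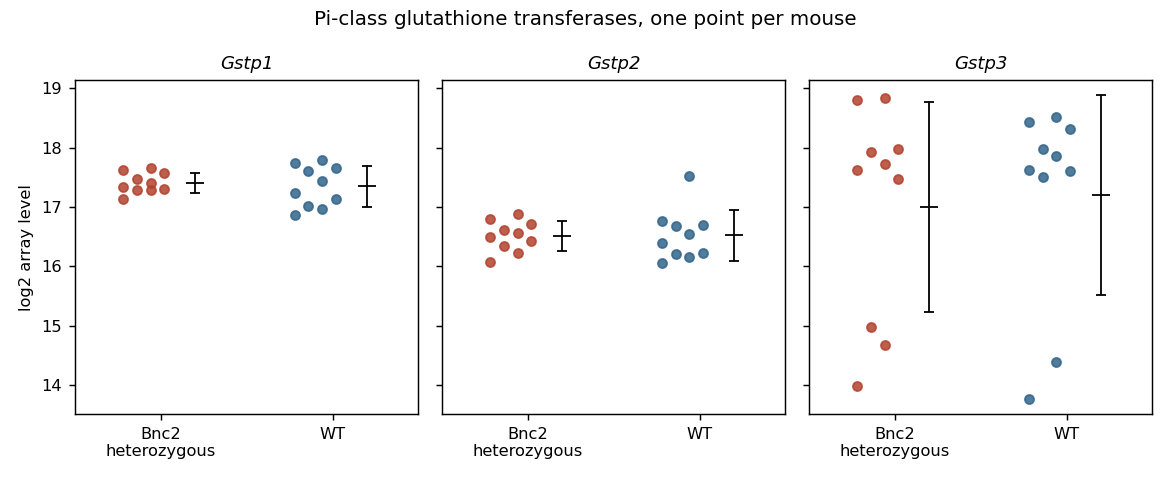
Log2 array level (y axis) of the pi-class genes Gstp1, Gstp2 and Gstp3 in each of 10 Bnc2 heterozygous and 10 WT livers, 1 point per mouse, with the mean and SD as the black bar. Gstp3 falls to 13.76 to 14.97 in 3 heterozygous and 2 WT livers and lies at 17.48 or above in the rest, while Gstp1 and Gstp2 show no split into 2 sets.

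The upstream sequences of the Gstp genes are shown together because only the third of them spread in this way. They are the 130 bases before each start from RefSeq (GRCm38.p6), 5' to 3' on the strand of the gene, with an AP-1 site, the letters TGANTCA, in capitals.
Gstp1, chr19:4037913-4038042, minus strand: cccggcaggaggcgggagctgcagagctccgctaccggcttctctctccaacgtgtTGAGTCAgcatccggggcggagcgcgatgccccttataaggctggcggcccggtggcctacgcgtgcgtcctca
Gstp2, chr19:4042222-4042351, minus strand: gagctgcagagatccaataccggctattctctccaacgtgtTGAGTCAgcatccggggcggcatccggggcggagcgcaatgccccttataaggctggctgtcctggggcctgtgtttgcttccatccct
Gstp3, chr19:4059448-4059577, minus strand: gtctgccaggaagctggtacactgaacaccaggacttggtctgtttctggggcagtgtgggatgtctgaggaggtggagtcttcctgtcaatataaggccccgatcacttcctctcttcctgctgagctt
Gstp1 and Gstp2 carry the AP-1 letters 74 and 89 bases before the start, and the 250 bases before Gstp3 do not hold them on either strand. In all, 9 of 45 members and 7.44% of 16990 genes had a match, among them Ugt2b1 and Ugt2b38 with TGAATCA and Ugt2b35 with TGATTCA. Any middle base was accepted, so these counts are wider than those of TGACTCA and TGAGTCA. A relation of the match to the array levels was not tested.

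UDP-glucuronosyltransferases of the Ugt2b group, which act on steroids, bile acids and phenols, had a positive difference in 6 of 7 members. Ugt2b1 had log2 levels of 16.92 to 17.69 (median 17.44) in heterozygous and of 16.79 to 17.56 (median 17.16) in WT livers. The ranges overlapped, although 9 of 10 heterozygous livers lay above the WT mean, and 3 lay above every WT liver. The fold was 1.22 (1.06 to 1.41; limma unadjusted p = 0.00733, adjusted p = 0.613; permutation p = 0.0103). Ugt2b37 was below the dim bound on average, with log2 levels of 5.82 to 7.11 (median 6.13) in heterozygous and of 5.19 to 6.38 (median 5.81) in WT livers. Its fold was 1.29 (1.04 to 1.59; unadjusted p = 0.0229, adjusted p = 0.675; permutation p = 0.0289), with 5 WT livers below every heterozygous one, and without WT replicate 5 the unadjusted p was 0.0510.

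The other Ugt2 genes lay closer to no difference. Ugt2b36 had log2 levels of 15.90 to 16.39 (median 16.16) in heterozygous and of 15.79 to 16.36 (median 16.07) in WT livers, a fold of 1.07 (0.955 to 1.20). Ugt2b34 varied little (within-genotype SD of 0.09), between 17.31 and 17.66 in heterozygous and between 17.37 and 17.62 in WT livers on the log2 scale, and its fold of 1.01 had an interval of 0.934 to 1.10. Ugt2b35 and Ugt2a3 had folds of 1.04 (0.908 to 1.19) and 1.07 (0.881 to 1.31). The negative difference in this group was that of Ugt2b5, with log2 levels of 16.05 to 16.42 (median 16.24) in heterozygous and of 15.94 to 16.58 (median 16.33) in WT livers and a fold of 0.951 (0.851 to 1.06). In each of these genes the genotypes overlapped.

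Ugt3a1 and Ugt3a2, whose human counterparts use sugars other than glucuronic acid, both had a fold just under 1, at 0.965 (0.755 to 1.23) and 0.957 (0.827 to 1.11). For Ugt3a2 the log2 levels were 16.58 to 17.35 (median 17.07) in heterozygous and 16.81 to 17.37 (median 17.06) in WT livers. Ugt1a genes, which include that of the bilirubin-conjugating enzyme and share exons, were read by 2 shared probe sets with folds of 1.02 (0.914 to 1.14) and 0.899 (0.709 to 1.14). Neither passed at an unadjusted p of 0.05, and the same held for the probe sets of Ugt2a1 with Ugt2a2 (fold 1.15, 0.938 to 1.41), of Gstz1 with Pomt2 (1.01, 0.919 to 1.10) and of Gstm5 with another gene (0.937, 0.839 to 1.05).

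Sulfotransferases of family 1, which sulfate phenols, catecholamines, thyroid hormone and oestrogens, had a positive difference in all 6 members, with a median of 0.18 on the log2 scale. Of the 6, 4 were at or above the dim bound. Sult1c1, at a mean log2 level of 4.33, lay below it and had a fold of 1.07 (limma unadjusted p = 0.361). Sult1e1, the oestrogen sulfotransferase, had log2 levels of 5.97 to 7.22 (median 6.67) in heterozygous and of 5.23 to 8.00 (median 5.76) in WT livers. WT replicate 10 alone lay above all heterozygous livers, whereas 7 WT livers lay below every heterozygous one. The fold was 1.62 (1.12 to 2.36; limma unadjusted p = 0.0138, adjusted p = 0.628; permutation p = 0.0255), at a mean level under the dim bound. Without the 4 arrays of smallest spread of values over probe sets the unadjusted p was 0.0778.

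Sult1c2, a phenol sulfotransferase, had log2 levels of 8.76 to 10.11 (median 9.86) in heterozygous and of 8.63 to 10.04 (median 9.42) in WT livers, a fold of 1.30 (1.00 to 1.69; limma unadjusted p = 0.0495). The ranges were nearly the same, and the permutation test gave p = 0.0719. Without any 1 of heterozygous replicates 1, 4 to 8 and 10 or WT replicates 1, 2, 5, 6, 9 and 10, the unadjusted p of Sult1c2 was 0.0502 to 0.101. It was 0.0520 after quantile normalization, 0.0501 after centring and 0.0523 among genes at or above the median level. Sult1b1, which acts on thyroid hormone, had log2 levels of 8.98 to 10.45 (median 9.32) in heterozygous and of 8.48 to 9.99 (median 9.15) in WT livers, a fold of 1.17 (0.892 to 1.53). Sult1d1, a catecholamine sulfotransferase of rodents, and Sult1a1, the main phenol sulfotransferase, had folds of 1.09 (0.947 to 1.26) and 1.10 (0.858 to 1.41). Their log2 medians were 15.11 and 15.99 in heterozygous livers and 14.94 and 15.81 in WT livers. The 6 differences of family 1 stayed positive after quantile normalization, after centring and without any 1 mouse, although Sult1c2 lost its call under both scalings.

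**Figure D3:**
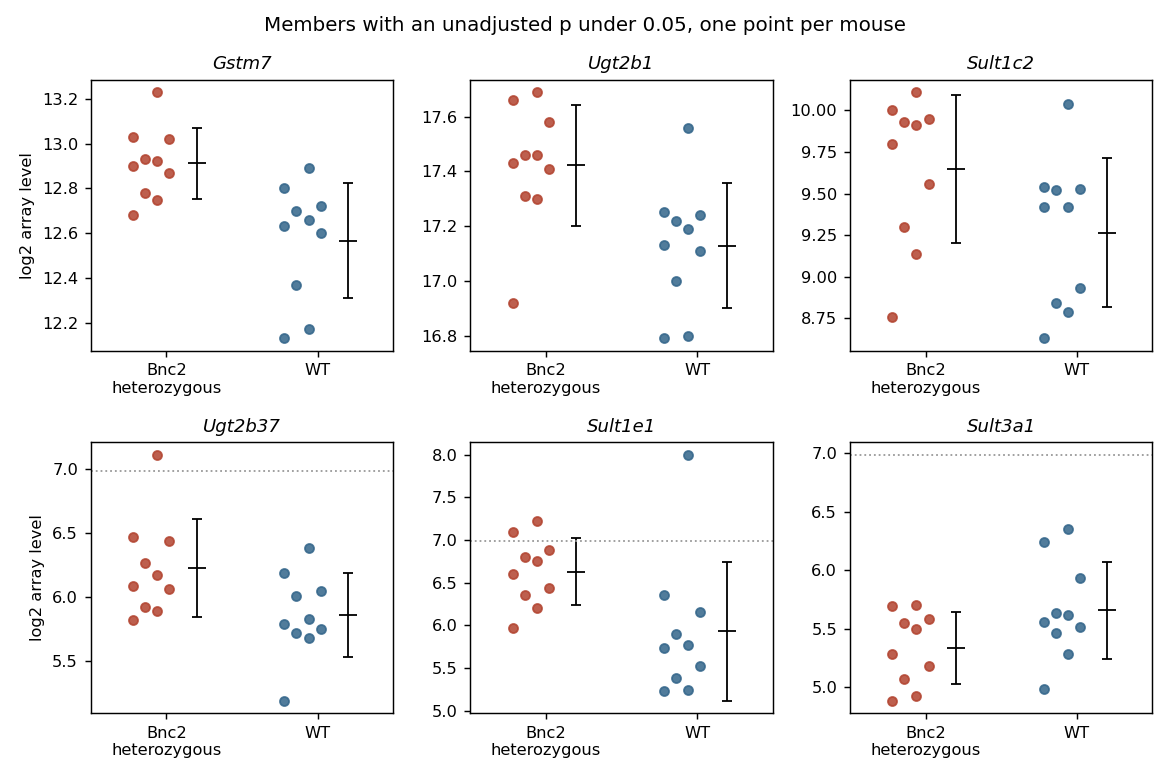
Log2 array level (y axis) in each of 10 Bnc2 heterozygous and 10 WT livers for the 6 members with an unadjusted p under 0.05, 1 point per mouse, with the mean and SD as the black bar; the dotted line marks the dim bound of 6.99. The genotypes overlap in every panel, and most points of Ugt2b37 and Sult1e1 and all of Sult3a1 lie below the bound.

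In the remaining sulfotransferases the signs were mixed. Sult3a1, an amine sulfotransferase known in mouse to be higher in females, had log2 levels of 4.88 to 5.70 (median 5.39) in heterozygous and of 4.98 to 6.35 (median 5.59) in WT livers, all below the dim bound. Its fold was 0.801 (0.642 to 0.999; limma unadjusted p = 0.0489, adjusted p = 0.775; permutation p = 0.0691), with 3 WT livers above every heterozygous one. Without any 1 of heterozygous replicates 2, 5, 6, 9 and 10 or WT replicates 2, 4 to 6, 8 and 10, the unadjusted p of Sult3a1 was 0.0525 to 0.107. It was 0.0553 with array weights and 0.301, with a log2 difference of -0.17, without the 4 arrays of smallest spread, against a difference of -0.32 with all arrays. Sult2a8, a bile acid sulfotransferase of male mouse liver, had log2 levels of 11.42 to 14.89 (median 13.69) in heterozygous and of 11.36 to 14.57 (median 13.39) in WT livers, a fold of 1.16 (0.669 to 2.01). Its log2 difference of 0.21 became -0.0074 without WT replicate 2 and 0.45 without heterozygous replicate 3. Its within-genotype SD of 0.95 stood at percentile 99.2 of genes at or above the dim bound, and its lowest livers were heterozygous replicate 3 and WT replicate 2.

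Sult2a1 to Sult2a7, hydroxysteroid sulfotransferases known in mouse to be higher in females, were all below the dim bound in these males on average, with 3 of 7 differences positive. Sult2a2 reached a log2 level of 6.53 in the highest heterozygous liver, against 8.30 in WT replicate 7. Because these genes are near copies of each other, a probe set of 1 of them may also bind transcripts of another.

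The 130 bases before the start of 4 sulfotransferases are shown because letters matching a site of the hepatocyte factor HNF1 recur there (in capitals, the letters GTTAAT followed after any 1 base by ATT). The sequences are from RefSeq (GRCm38.p6), 5' to 3', and Sult2a8 is set below for comparison.
Sult1d1, chr5:87569007-87569136, minus strand: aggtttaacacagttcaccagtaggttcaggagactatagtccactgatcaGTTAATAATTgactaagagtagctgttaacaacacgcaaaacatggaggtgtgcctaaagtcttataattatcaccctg
Sult2a3, chr7:14123049-14123178, minus strand: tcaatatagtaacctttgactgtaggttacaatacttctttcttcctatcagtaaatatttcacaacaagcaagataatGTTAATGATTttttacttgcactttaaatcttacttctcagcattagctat
Sult2a5, chr7:13623837-13623966, plus strand: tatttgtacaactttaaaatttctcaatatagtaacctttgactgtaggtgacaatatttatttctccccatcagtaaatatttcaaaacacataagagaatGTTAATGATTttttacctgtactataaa
Sult2a6, chr7:14254871-14255000, minus strand: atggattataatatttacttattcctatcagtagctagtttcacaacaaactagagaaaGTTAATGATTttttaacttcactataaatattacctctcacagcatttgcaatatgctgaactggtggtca
Sult2a8, chr7:14446588-14446717, minus strand: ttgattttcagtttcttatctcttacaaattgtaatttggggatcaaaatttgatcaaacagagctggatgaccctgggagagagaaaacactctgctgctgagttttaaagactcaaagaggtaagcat
With Sult2a4, whose match lies 107 bases before the start, 5 of 45 members held these letters (11.1%), beside 0.43% of 16990 genes, and the 250 bases before Sult2a8 did not hold them. The Sult2a sequences resemble one another, so their matches are not separate observations. All these matches are of letters and were not tested as binding sites or against the array levels. Among the other motifs searched on both strands, TATAA was found in 57.8% of members and 23.4% of genes, the C/EBP letters TTGCNNAA in 22.2% and 10.4%, and the dioxin response element core GCGTG in 15.6% and 37.2%. The HNF4 letters CAAAGTCCA were found in 0 of 45 members and in 0.47% of genes.

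The 27 members not described singly by the naming rule had differences of -0.27 to 0.34 on the log2 scale and unadjusted p of 0.0815 to 0.975, and 15 were positive. Along the chromosomes, the run of 11 neighbouring genes from Ugt2b34 to Sult1e1 held 10 positive differences with a median of 0.10, and the run of 8 Sult2a genes held 4 with a median of 0.0045. Averaged over the 31 members at or above the dim bound, the log2 levels were 14.16 ± 0.16 in heterozygous and 14.07 ± 0.18 in WT livers (SD, n = 10 each). The difference of these means is smaller than either SD.

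Single mice took many of the extremes. Of the 31 members at or above the dim bound, heterozygous replicate 4 was the highest of its genotype in 8 and heterozygous replicate 3 the lowest in 11, while WT replicate 4 was the highest in 10 and WT replicate 2 the lowest in 8. The mean log2 level over the 31 ran from 13.94 to 14.36 among heterozygous and from 13.74 to 14.40 among WT livers.

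Enzymes that make the activated donors were set against the members at or above the dim bound, mouse by mouse, as deviations from the genotype means. The 60 relations were chosen after the data had been seen, and both values of a mouse come from 1 array. Papss2, which makes PAPS in liver, had a positive correlation with all 5 sulfotransferases, of which 4 passed over the 60 relations. These 4 had r of at least 0.630 with Papss2. So did 2.46% of the 10427 genes at or above the dim bound without Papss2, the 4 among them. Of those 10427 genes, 53.4% had a positive r. For Sult2a8 Pearson's r was 0.794 (permutation p = 6e-05, adjusted p = 0.0036) and Spearman's rho 0.740 (permutation p = 0.00042, adjusted p = 0.0132), with r of 0.839 within heterozygous and 0.746 within WT mice. Without the 2 mice farthest from the median of Papss2, r was 0.626.

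Sult1c2, Sult1b1 and Sult1a1 had r of 0.763, 0.708 and 0.630 with Papss2 (permutation adjusted p = 0.0048, 0.00948 and 0.0327), rho of 0.722, 0.731 and 0.708 (adjusted p = 0.0132, 0.0132 and 0.0144) and, without the 2 farthest mice, r of 0.620, 0.651 and 0.725. Papss1, the other PAPS synthase, had negative r with all 5 (-0.43 to -0.02), and 0 passed, while 67.1% of genes as bright had a positive r with it. Papss2 itself had log2 levels of 15.33 to 16.35 (median 16.00) in heterozygous and of 15.13 to 16.09 (median 15.75) in WT livers, a fold of 1.19 (0.979 to 1.45; limma unadjusted p = 0.0771).

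**Figure D4:**
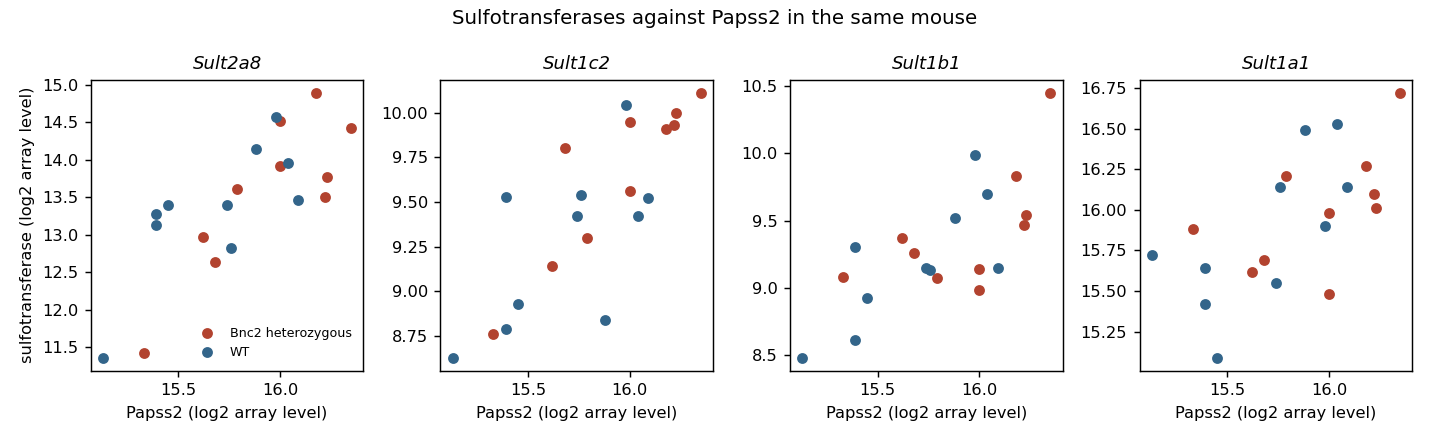
Log2 array level of 4 sulfotransferases (y axis) against that of Papss2 (x axis), 1 point per mouse, for 10 Bnc2 heterozygous and 10 WT livers. The points of both genotypes run upward together, with r of 0.794 for Sult2a8, 0.763 for Sult1c2, 0.708 for Sult1b1 and 0.630 for Sult1a1 after removal of the genotype means.

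Ugdh, which makes UDP-glucuronic acid, correlated with Ugt2b35 (r = 0.751, permutation adjusted p = 0.00555; rho = 0.677, adjusted p = 0.0222), Ugt2b5 (r = 0.745, adjusted p = 0.00555; rho = 0.735, adjusted p = 0.0143) and Ugt2b34 (r = 0.666, adjusted p = 0.0159; rho = 0.577, adjusted p = 0.0806), and with the other 5 glucuronosyltransferases it did not pass. An r of at least 0.666 with Ugdh was found for 0.0767% of genes as bright, namely 8 genes with these 3 members among them. Without the 2 farthest mice, r was 0.570, 0.678 and 0.376 in the same order (unadjusted permutation p = 0.0224, 0.00462 and 0.114). These p-values were not adjusted over the 60 relations, so they do not show which relations would still pass. Leaving out the extreme values of an enzyme can itself lower r. Ugp2, the enzyme before Ugdh, passed with Ugt2b1 alone (r = 0.648, permutation adjusted p = 0.0327; rho = 0.398, adjusted p = 0.380), and 0.662% of genes as bright reached that r. For Ugp2 with Ugt2b1, r was 0.376 without the 2 farthest mice (unadjusted permutation p = 0.191), to be read with the same limits. Of 17 glutathione transferases, Gstp3 being left out for its 2 sets of livers, 0 passed with Gclc or Gclm, the subunits of the enzyme that limits glutathione synthesis (r of -0.48 to 0.41).

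The genes around the members gave no adjusted call either, and none of the following values was tested as a cause. Genes of glutathione supply and turnover had 4 of 17 positive differences (median -0.06). At an unadjusted p under 0.05, 2 were lower (3.63% of all genes). These were the cystine importer Slc7a11 (fold 0.579, 0.441 to 0.759, below the dim bound) and the glutathione conjugate exporter Abcc1 (0.833, 0.742 to 0.936). In UDP-glucuronic acid supply 9 of 11 were positive (median 0.10), with Uxs1, which turns UDP-glucuronic acid into UDP-xylose, at 1.17 (1.01 to 1.36). In PAPS supply and desulfation 5 of 11 were positive (median -0.03), with the sulfate transporter Slc26a1 at 1.32 (1.06 to 1.63) and the lysosomal arylsulfatase Arsa at 0.892 (0.815 to 0.977). Transporters of conjugates had 7 of 12 positive (median 0.05), among them the organic anion transporter Slc22a7 at 1.82 (1.36 to 2.43; limma unadjusted p = 0.000307, adjusted p = 0.446). The mean log2 level of Slc22a7 was 7.66 in heterozygous livers and 6.80, below the dim bound, in WT livers.

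The members' known regulators and their other targets had mixed signs. Nfe2l2, which encodes NRF2, had a fold of 1.23 (1.06 to 1.42) and Rxra, partner of CAR and PXR, one of 0.878 (0.776 to 0.993), with 11 of 19 regulators positive (median 0.01). NRF2 targets other than members had 5 of 14 positive (median -0.02), and Nqo1, a quinone reductase used as a marker of NRF2, had a fold of 0.570 (0.379 to 0.859). CAR and PXR targets had 12 of 14 positive (median 0.16). At an unadjusted p under 0.05, 3 were higher (2.78% of all genes), namely Ces2a (1.26), Cyp3a11 (1.11) and Cyp2b10 (1.27, below the dim bound). AHR targets had 2 of 7 positive (median -0.10), with Cyp1b1 at 0.780 (below the dim bound) and Nqo1 as above.

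Other phase II enzymes had 10 of 16 positive differences (median 0.06), and other MAPEG and GST-fold genes 7 of 10 (median 0.04), where the leukotriene helper Alox5ap, expressed in leukocytes, and the channel protein Clic1 had folds of 0.761 and 0.808. Male-biased liver genes had 12 of 17 positive (median 0.13), with Mup20 at 1.33, Mup3 at 1.46 and Nudt7 at 1.71, and female-biased ones 9 of 15 (median 0.01) with 0 at an unadjusted limma p under 0.05. The 3 male-biased genes named had limma unadjusted p of 0.00524, 0.0421 and 0.000980. At an unadjusted p under 0.05, 3 of the male-biased list were higher (2.78% of all genes) and 0 were lower (3.63%). Male-biased genes with a negative difference included Slco1a1, whose fold of 0.366 had a wide interval (0.0641 to 2.1).

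Most markers of non-hepatocyte cells had a negative difference in the same livers. At an unadjusted p under 0.05, 2.78% of all genes were higher and 3.63% lower, and the counts of markers below use the same threshold. Stellate cell and myofibroblast markers had 2 of 12 positive differences and 6 lower. The 2 positive were Lrat and Des, each with a fold of 1.02. The 6 lower were Col1a1, Col1a2, Col3a1, Dcn, Timp1 and, below the dim bound, Thy1. List means of the 12 were 10.75 to 11.47 in heterozygous and 11.19 to 11.84 in WT livers on the log2 scale. T and NK cell markers had 1 of 9 positive and 4 lower (5.93 to 6.79 in heterozygous, 6.39 to 7.33 in WT livers), and Kupffer cell and macrophage markers 1 of 12 and 2 (12.04 to 13.13 in heterozygous, 12.60 to 13.21 in WT livers). Pericentral hepatocyte markers had 7 of 12 positive, 1 higher and 0 lower (12.86 to 13.55 in heterozygous, 13.01 to 13.32 in WT livers), and periportal ones 6 of 10, with 2 higher and 1 lower (13.68 to 14.21 in heterozygous, 13.52 to 14.27 in WT livers).

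Cholangiocyte markers had 0 of 7 positive (6.24 to 7.40 in heterozygous, 6.35 to 7.71 in WT livers). Sinusoidal endothelial markers had 2 of 8 (11.78 to 12.39 in heterozygous, 11.97 to 12.39 in WT livers). Genes listed for other tissues had 6 of 14, of which 2 reached the dim bound, Fabp2 (mean log2 level 15.41) and Cidec (12.63). Whether the signal of these 2 came from liver cells or from other tissue was not tested. The part of these cell types in the members' differences was not tested.

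**Figure D5:**
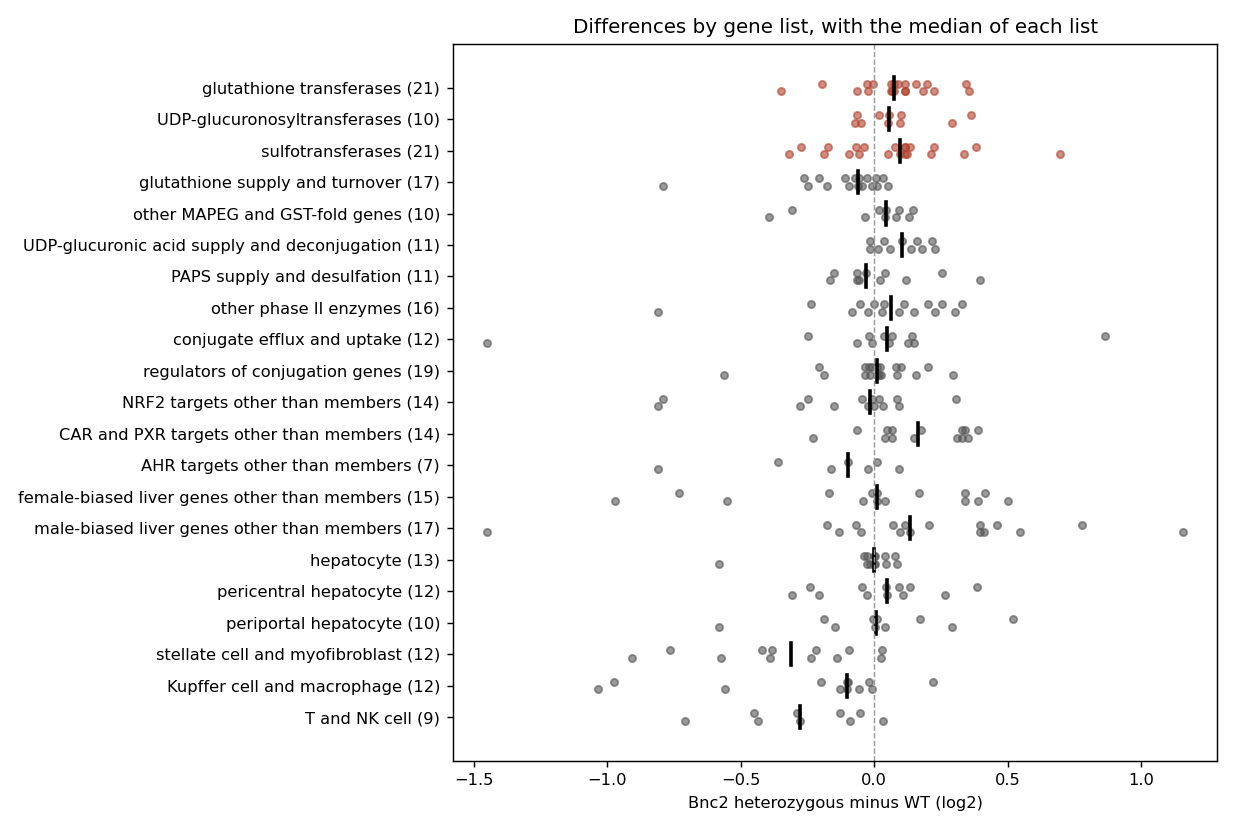
Difference between Bnc2 heterozygous and WT livers (x axis, log2, heterozygous minus WT; 10 mice per genotype) for each gene of the 3 enzyme families in red and of related lists in grey, with a black bar at each list's median and the number of genes in brackets. The medians of the 3 families lie at 0.07, 0.05 and 0.10, and that of stellate cell and myofibroblast markers lies at -0.31.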

How the data were processed

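Liver RNA of 10 Bnc2 heterozygous and 10 WT mice was measured on Affymetrix mouse gene arrays, 1 array per mouse, so precision is set by the 10 arrays of each genotype. The authors made the deposited log2 values with Affymetrix Power Tools (version not given in the sources used here), which corrected intensities for GC content, scaled them and summarised each core gene by robust multi-array averaging (RMA). The annotation release used for the mouse arrays is not given in the sources used here. Averaging and scaling over arrays can shrink differences, so folds are on that scale.

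Of 41345 probe sets, 23521 had 1 gene symbol in the platform annotation, 1820 had several and 16004 had none. Values were averaged per symbol, which gave 22180 genes, and 23328 of the single-symbol probe sets matched RefSeq by gene ID. limma 3.58.1 in R 4.3.3 (lmFit and eBayes, heterozygous minus WT, no covariate) was fitted to all genes, with Benjamini-Hochberg adjustment over all of them. The code was tested on simulated data. Labels name no scan batch. Labels call the mice separate animals only by number, so p-values measure the spread between these mice.

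Permutation tests drew 100000 regroupings and were two-sided. Named are every member with an unadjusted p under 0.05, members at or above the dim bound with the smallest p up to 8 per family, and the 3 members with the highest mean level in each family. The members, the lists of related genes and markers, and the naming rule were chosen with earlier results of these data known. Correlations with donor-making enzymes, and the fit without the 4 arrays of smallest spread, were added after the data had been seen. Alternatives were quantile normalization, centring, a level filter, the brightest probe set, adding probe sets of several genes, eBayes with trend and robust, array weights, a replicate block, leaving out each mouse, and permutation. Promoter sequences came from RefSeq (GRCm38.p6), where 45 of 52 members had an entry, and no protein sequences were used here.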

Additional observations from a re-analysis of the deposited data

Results flagged for a closer look

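In 3 of 52 groups of 10 mice tested, 1 for each genotype and named gene with Bnc2, a single liver stood apart from its group by Dixon's criterion. Chance flags about 1 in 20 groups. Ugt2b1 was 16.92 in heterozygous replicate 3, below the next liver of that genotype at 17.30 on the log2 scale. Ugt2b37 was 7.11 in heterozygous replicate 2, above the next at 6.47. Sult1e1 was 8.00 in WT replicate 10, against 6.36 in the next WT liver. Without that mouse the Sult1e1 difference was 0.93 on the log2 scale (limma unadjusted p = 1.69e-05), and 0 members had an adjusted p under 0.05. That mouse was singled out by its Sult1e1 value, which lay against the difference, so a smaller p comes with the choice. With each mouse left out in turn, the limma unadjusted p of Sult1e1 was 1.69e-05 to 0.029. The mean level of Sult1e1 lay below the dim bound.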

How the results depend on the processing

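The count of members with an adjusted limma p under 0.05 was 0 under every alternative run. Members higher at an unadjusted p under 0.05 numbered 5 with the deposited values, 2 among genes at or above the median level, where 31 members were tested, 8 with the replicate block and 8 without the 4 arrays of smallest spread, a setting chosen after seeing the data. The share of all genes so called was 2.78%, 3.27%, 2.79% and 3.47% in the same order. Leaving out 1 mouse at a time gave 4 to 8 members (2.35% to 3.27% of all genes), with 4 without WT replicate 2 and 8 without heterozygous replicate 3. Members lower numbered 1, and 0 under the level filter and without the 4 arrays, with 0 to 3 when 1 mouse was left out; of all genes 3.63% were lower with the deposited values, 4.92% and 3.44% under those settings and 3.11% to 4.19% without 1 mouse. Replicate numbers did not pair the mice, since 4 of 10 same-numbered pairs had a correlation of deviations over 0.1 and 2 of 10 heterozygous mice correlated best with their own number. Family medians moved by less than 1 SD of the mouse means but, being small, by over 1.5 times in places. The log2 median of UDP-glucuronosyltransferases, 0.0546, was 0.0147 to 0.0364 without any 1 of heterozygous replicates 1, 4, 8 and 9 or WT replicates 2, 8 and 9, 0.0862 without WT replicate 6, 0.0939 without heterozygous replicate 2, 0.0365 for the 8 at or above the median level and 0.0312 with probe sets of several genes added. That of sulfotransferases, 0.0982, was 0.0501 without WT replicate 9 and 0.2135 for the 5 at or above the median level, and that of glutathione transferases, 0.0749, was 0.1168 without WT replicate 7. Without 1 mouse, the Gstp3 difference ran from -0.58 to 0.14 and was positive at 0.06, 0.14 and 0.03 without heterozygous replicates 1, 5 and 6, and that of Sult2a8 ran from -0.0074, without WT replicate 2, to 0.45. Gstm7 and Ugt2b1 kept an unadjusted p under 0.05 in all 30 alternatives. These were not 30 separate checks. Each member had 1 probe set, so taking the brightest probe set left both differences unchanged, as did the level filter. Sult1c2 lost it in 17 of 30 and Sult3a1 in 14 of 29, both with the permutation test among them, Sult1e1 without the 4 arrays (p = 0.0778) and Ugt2b37 without WT replicate 5 (p = 0.0510). Named members without a call gained one in 7 alternatives (Gstt3), 6 (Gsta3), 5 (Gstk1), 3 (Gstt2) and 1 each (Gsta4, Gstm1, Gstm3, Sult1d1) of 30. The cause of these shifts was not tested. Dim signal limits what can be said of the 21 members below the bound.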
